A study of Chlorocebus sabaeus with 45 samples.

Results

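The integrated stress response is the route by which a cell lowers protein synthesis when it lacks heme or amino acids, accumulates unfolded proteins or is infected. Each of these states activates a kinase (HRI, PERK, GCN2 or PKR) that phosphorylates the alpha subunit of the translation factor eIF2. Most translation then slows, while the mRNA of the transcription factor ATF4 is translated more efficiently. ATF4 and its partner CHOP in turn switch on genes for amino acid supply and, under lasting stress, cell death, and a phosphatase guided by a GADD34 or CReP subunit takes the phosphate off again. In blood, HRI is best known from red cell precursors, where it matches globin synthesis to the supply of heme. Much of this route acts on proteins, so transcript levels show how much message for each part was present and not how active the kinases were.

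The genes described here are 10 parts of this route, chosen by symbol: the kinases EIF2AK1 (HRI), EIF2AK3 (PERK) and EIF2AK4 (GCN2), their substrate EIF2S1 (eIF2 alpha), the transcription factors ATF4 and DDIT3 (CHOP), the ATF4 targets TRIB3 and ASNS, and the phosphatase subunits PPP1R15A (GADD34) and PPP1R15B (CReP). Of the 33994 genes listed per library, 9 of the 10 were found by symbol. PPP1R15A was not analysed here. All 9 passed the filter on low values, and are among the 18753 genes tested. The fourth kinase, EIF2AK2 (PKR), is not among the 10 and is described beside them.

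Whole blood was taken 3 times from each of 15 wild-born juvenile male vervets (Chlorocebus sabaeus) on St. Kitts, which gave 45 libraries. The day 0 samples were drawn in the field after trapping, under ketamine and xylazine. The day 3 and day 14 samples were drawn under dexmedetomidine and midazolam from the same animals, housed singly in a quarantine facility. Sedation and place therefore cannot be told apart from time in the step from day 0 to the later days, while day 3 and day 14 share both. Blood was also drawn from these animals between day 3 and day 14 for other measurements, so each later sample followed more draws. Earlier draws therefore cannot be told apart from time in any of the comparisons. The libraries include no animals that stayed in the wild over the same days, and all animals were of 1 sex and age class. Unless stated otherwise, levels are FPKM (fragment counts adjusted for gene length and library total) divided by a TMM factor (trimmed mean of M values), which sets the typical gene equal between libraries and is called scaled FPKM below. Changes are thus relative to the typical gene, whose log2 change without TMM was −0.03 (day 3 vs. day 0), −0.36 (day 14 vs. day 0) and −0.35 (day 14 vs. day 3). A change is a difference in log2(scaled FPKM + 0.1) from limma, called at an adjusted p-value under 0.05 over all 18753 tested genes. This main fit had 1 mean per time point and no term for the animal, although the samples are paired by animal. Fits with the animal as a block are given as alternatives.

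The libraries held 13216280 to 31469337 fragments on genes. On day 0 the members rested on at least 154 fragments in every library, on day 3 on at least 85 and on day 14 on at least 108. The libraries of animal 4 on day 14 and animal 9 on day 0 stood apart, with 2592 and 3242 genes listed at 0 against 7202 to 13986 in the others. Whole blood is a mixture, and its makeup by marker genes moved with the time points. Of 14 tested erythroid markers, 9 rose on day 3 and 13 on day 14 vs. day 0, and their summed level ranged over 483 to 21540 scaled FPKM on day 0, 3924 to 40500 on day 3, and 6969 to 63710 on day 14. Of 17 neutrophil markers, 11 fell on day 3 and 16 on day 14, with summed levels of 612 to 6435, 221 to 1587 and 192 to 1074. With the RNA integrity covariate 5 and 7 of the neutrophil markers fell. RNA integrity was itself higher on average on the later days, so its part and that of time cannot be fully separated. Of 9 platelet markers 8 rose on day 3 and 2 on day 14 (233 to 4259, 601 to 4820 and 410 to 3456), and of 8 natural killer cell markers 2 and 6 rose (72 to 199, 105 to 332 and 134 to 501). On day 14, 6 platelet markers rose with the animal as a block, 1 without TMM and 0 with the RNA integrity covariate, and on day 3, 5 natural killer cell markers rose with the block, 1 with the covariate and 0 without TMM. T cell, B cell and monocyte markers had at most 3 calls of 9, 9 and 10 in either comparison with day 0, but on day 14 without TMM 8 B cell markers fell, 5 monocyte markers fell and 1 rose, and with the animal as a block 4 fell in each of these lists. From day 3 to day 14, 3 erythroid markers rose (8 with the block), 4 B cell markers fell (6 with the block, 8 without TMM and 2 with the RNA integrity covariate), 2 platelet markers fell (6 with the block, 8 without TMM), and 0 neutrophil markers were called (9 fell without TMM). In the same step 1 monocyte marker fell (5 fell and 1 rose with the block, 6 fell without TMM). For natural killer cell and T cell markers 2 rose in each list (3 with the block), and without TMM 0 rose and 3 T cell markers fell. No marker of any list was at 0 in all libraries. In such a mixture, fewer cells of a type and less RNA per cell cannot be told apart.

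On day 3 vs. day 0, 5 of the 9 members were dysregulated, in a comparison that called 12.2% of all tested genes (6.01% up and 6.19% down). EIF2AK1 and TRIB3 were up-regulated, while EIF2AK3, PPP1R15B and DDIT3 were down-regulated. On day 14 vs. day 0 it was 6 of 9, where 36.0% of all tested genes were called (18.8% up and 17.3% down): EIF2AK1, ASNS, ATF4 and EIF2S1 rose, the last 2 only with TMM, and EIF2AK3 and PPP1R15B fell. On day 14 vs. day 3, with 13.4% of all genes called (8.38% up and 5.01% down), 2 of 9 passed, and these were the rises of EIF2AK1 and ASNS. The median log2 fold change of the members was 0.05, 0.15 and 0.20 in these comparisons, against 0.01, −0.02 and −0.02 for all tested genes. Without TMM the calls over all genes split into 1460 rises and 7830 falls for day 14 vs. day 0 and 606 and 6600 for day 14 vs. day 3, in place of 3517 and 3239 and of 1572 and 939. Each pair of comparisons shares the samples of 1 time point, so the 3 are not independent of each other.

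**Figure D1:**
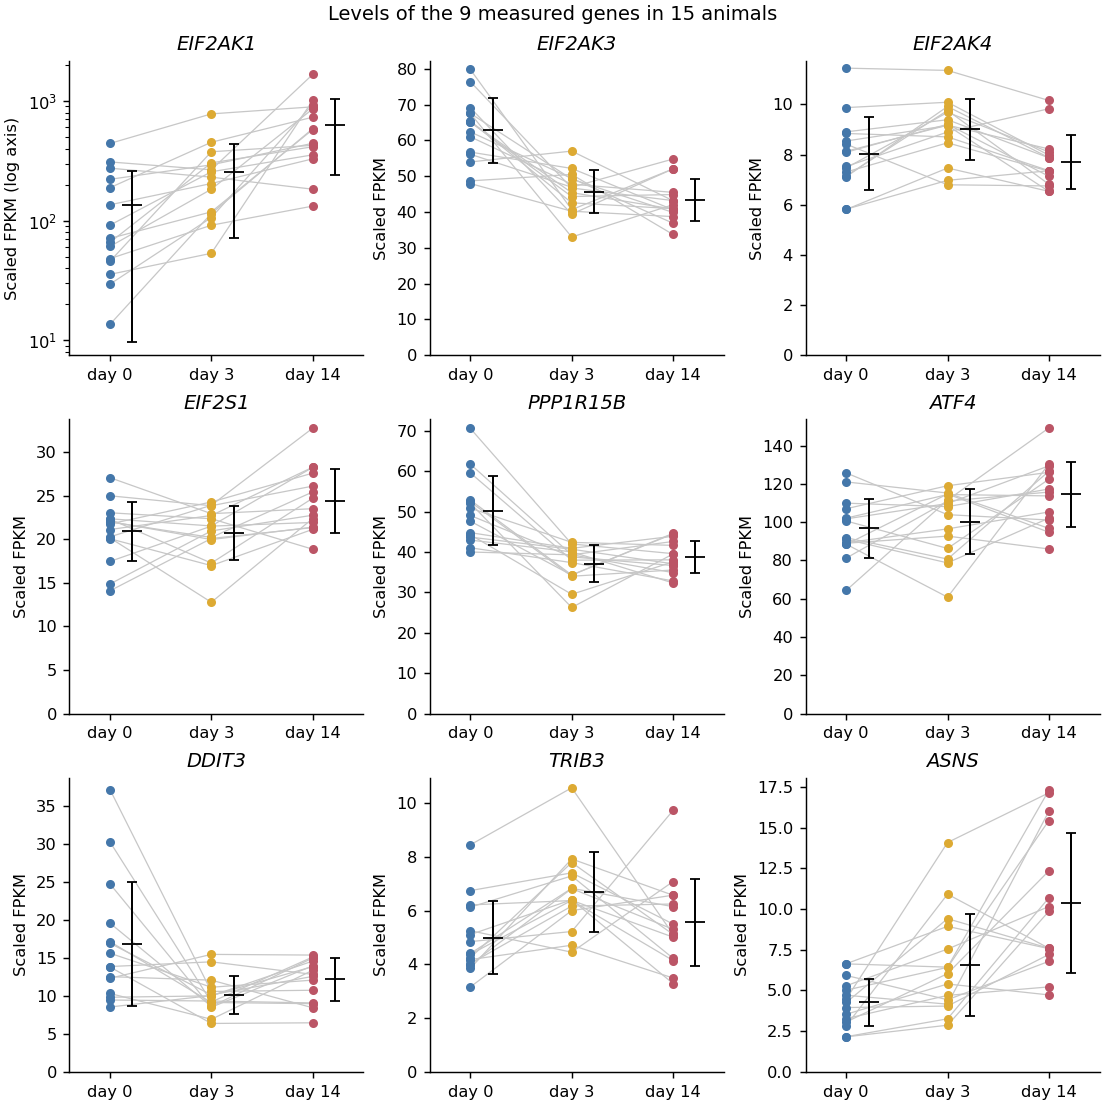
Each panel plots 1 gene, with scaled FPKM on the vertical axis (a log axis for EIF2AK1 only) against the time point. Points are the 15 animals, grey lines join samples of the same animal, and black bars give mean ± SD. Mean EIF2AK1 and ASNS are highest on day 14, EIF2AK3 and PPP1R15B are lower on day 3 and day 14 than on day 0, and the groups overlap in every panel.

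**Figure D2:**
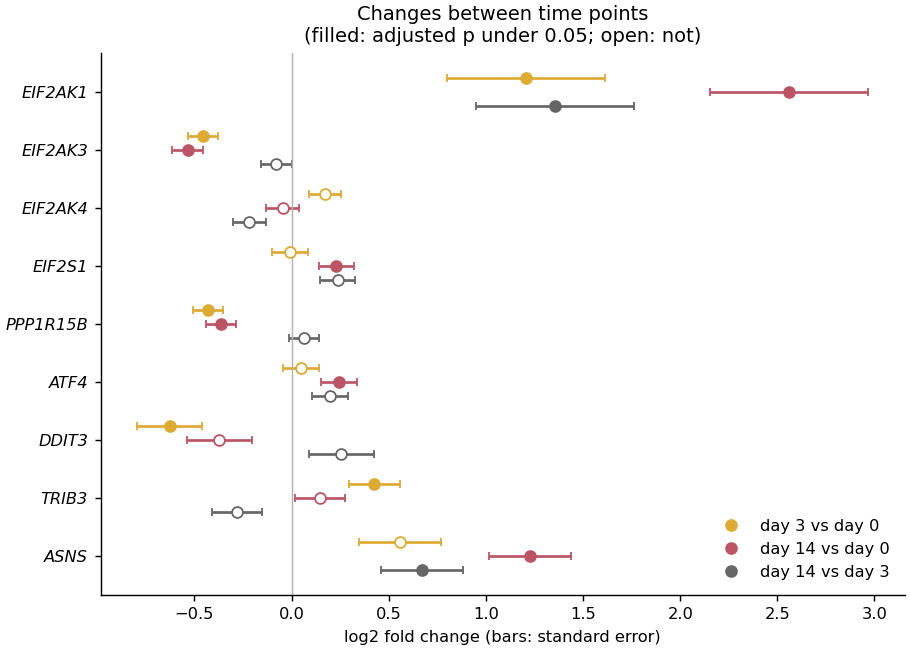
Log2 fold changes of the 9 genes between time points (horizontal axis, bars are the standard error), in color by comparison. Filled points passed an adjusted p-value of 0.05 over all tested genes: 5 in yellow (day 3 vs. day 0), 6 in red (day 14 vs. day 0) and 2 in grey (day 14 vs. day 3).

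EIF2AK1, the heme-regulated kinase HRI, had the largest change of all members. Its lowest, median and highest levels were 13.6, 71.1 and 442 scaled FPKM on day 0, 53.4, 231 and 780 on day 3, and 132, 576 and 1664 on day 14. The lowest samples on day 0 and day 14 were animals 9 and 4, the 2 libraries that stood apart. The 3 groups overlapped, but 9 of the 15 day 14 samples lay above the highest day 0 sample, and animal 7, the highest on day 0, was also the highest on day 3. Within animals the level was higher on day 3 in 13 of 15 and on day 14 in 14 of 15, the same number that rose from day 3 to day 14. The log2 fold change was 1.20 (standard error 0.41, adjusted p = 0.0428) on day 3 and 2.56 (0.41, adjusted p = 7.59e-06) on day 14, a 5.9-fold rise. From day 3 to day 14 it was 1.36 (0.41, adjusted p = 0.0249). The rise to day 14 was called with any animal left out, with adjusted p-values up to 5.70e-05. The rise to day 3 lost its call in 9 of 15 omissions (animals 2, 3, 5, 6, 9, 10, 11, 12 and 14, with adjusted p up to 0.110) and without the 2 libraries that stood apart (1.0, adjusted p = 0.0709), and the step from day 3 to day 14 lost it without animal 3, 8, 12 or 14 (up to 0.0855). The RNA integrity covariate ended both of these calls (1.15, adjusted p = 0.0861, and 1.30, adjusted p = 0.0591), but both were called with the animal as a block (adjusted p = 0.0120 and 0.0054) and with the block and this covariate together (1.18, adjusted p = 0.0294, and 1.33, adjusted p = 0.0230), and the day 3 call was also lost with no filter on low values (adjusted p = 0.0756).

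Across the 45 libraries EIF2AK1 followed the erythroid markers closely. Pearson's r with their mean log2 level was 0.974 over all libraries, and 0.973, 0.936 and 0.963 within day 0, day 3 and day 14 alone, over 15 libraries each. Gene and markers come from the same library and share its depth and scaling. With the mean levels of the erythroid and neutrophil markers as covariates, the change of EIF2AK1 was −0.32 on day 3 (standard error 0.16, adjusted p = 0.245) and −0.03 on day 14 (0.21, adjusted p = 0.970). Under these covariates 11 genes in all were called on day 14 vs. day 0, against 6756 without them. Among 10930 non-member genes with a mean of at least 5 CPM (fragment counts adjusted for the library total alone), the 2 most like EIF2AK1 over the 45 libraries were LOC103237668 (r = 0.995) and HBQ1, which encodes the theta chain of the hemoglobin family (r = 0.986). After removal of the time point means these values were 0.990 and 0.978.

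**Figure D3:**
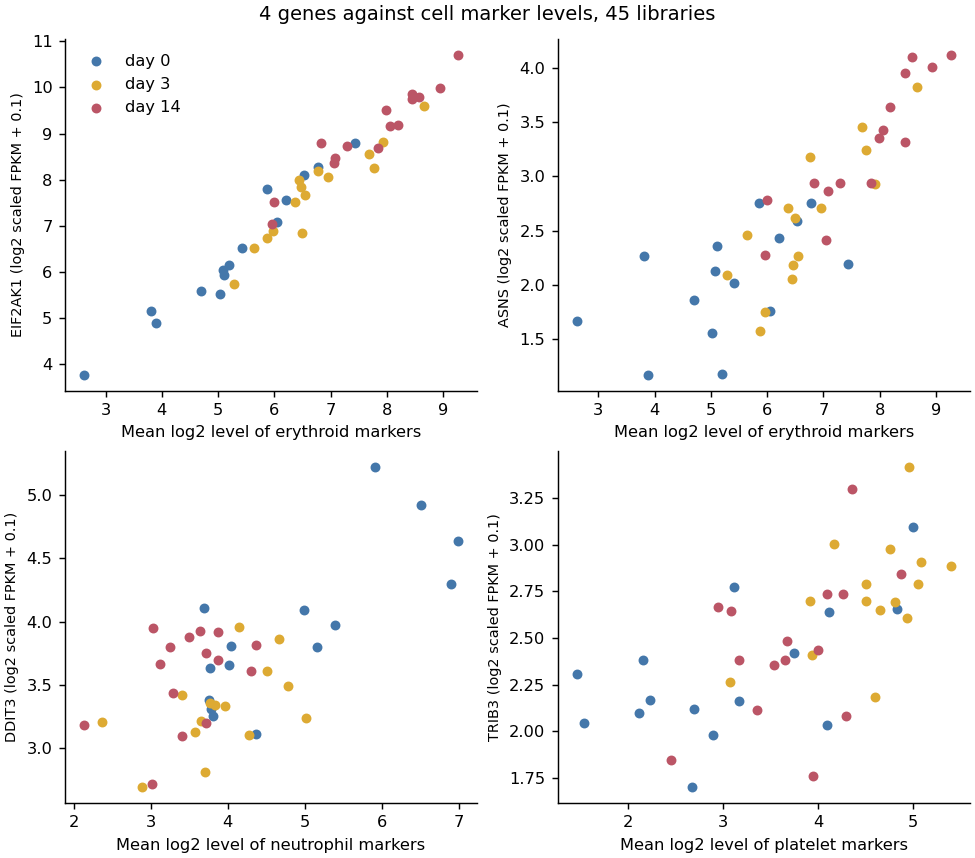
Log2 levels of EIF2AK1 and ASNS against the mean log2 level of 14 erythroid markers, of DDIT3 against 17 neutrophil markers and of TRIB3 against 9 platelet markers, with 1 point per library colored by time point. EIF2AK1 falls along a narrow line in all 3 time points (r = 0.974), and the other 3 panels scatter more widely (r = 0.849, 0.676 and 0.633).

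EIF2AK3, which encodes the endoplasmic reticulum kinase PERK, moved the other way. In the field its levels ran from 47.9 over a median of 65.1 to 79.8 scaled FPKM, against 33.0, 46.7 and 57.0 (lowest, median, highest) on day 3, and 33.7, 42.0 and 54.8 on day 14. On day 3, 10 of 15 samples were below the lowest day 0 sample, and on day 14 it was 12 of 15. It was lower in 13 of 15 animals on day 3 and in 15 of 15 on day 14. The log2 fold change was −0.46 (standard error 0.08, adjusted p = 5.20e-04) and −0.54 (0.08, adjusted p = 2.75e-06), and from day 3 to day 14 it was −0.08 (adjusted p = 0.532), or −0.46 without TMM (adjusted p = 0.00968). Both falls were called with any animal left out, with the animal as a block, with the RNA integrity covariate and without TMM. With the 2 marker covariates they were −0.32 (standard error 0.10, adjusted p = 0.0613) and −0.32 (0.13, adjusted p = 0.301). The correlation of EIF2AK3 with the neutrophil markers was 0.636 over the 45 libraries but 0.567, 0.374 and 0.043 within day 0, 3 and 14. The most similar non-member genes were TPP2, a large cytosolic peptidase, and JMJD1C, a chromatin protein (r = 0.827 and 0.826).

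EIF2AK4, the amino acid sensor GCN2, was the least abundant of the 3 kinases. Its lowest, median and highest levels were 5.81, 8.09 and 11.4 scaled FPKM on day 0, 6.80, 9.17 and 11.4 on day 3, and 6.53, 7.36 and 10.2 on day 14. The groups overlapped almost entirely, and animal 3 was the highest at each time point. Its log2 changes of 0.17 on day 3 and −0.05 on day 14 did not pass the threshold (adjusted p = 0.185 and 0.703), and neither did the step from day 3 to day 14 (−0.22, standard error 0.09, adjusted p = 0.0712), although 13 of 15 animals were lower. With the animal as a block this last step was called (adjusted p = 0.0155), but not with the RNA integrity covariate added to the block (−0.19, adjusted p = 0.0793), a fit in which the rise to day 3 was called (0.20, adjusted p = 0.0476). The last step was also called without the 2 libraries that stood apart (−0.24, adjusted p = 0.0452) and without animal 7, 10 or 11 (down to 0.0394). Without TMM, EIF2AK4 was called down both against day 0 (−0.47, adjusted p = 0.00920) and against day 3 (−0.60, adjusted p = 0.00371). The genes most like EIF2AK4 were CS, which encodes citrate synthase, and URB2, involved in ribosome biogenesis (r = 0.746 and 0.745).

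The ratios between the kinase transcripts can be read within each library, where no scaling between libraries enters. They still depend on cell makeup, since EIF2AK1 correlated with the erythroid markers at r = 0.974 and EIF2AK3 at −0.512. The ratios therefore describe the mixture, and a change within 1 cell type was not tested. The ratio of EIF2AK1 to EIF2AK3 in FPKM had a day 0 median of 1.35 (0.208 to 5.53), and medians of 4.92 (1.35 to 19.2) by day 3 and 14.1 (3.06 to 41.8) by day 14. Its lowest values on day 0 and day 14 came from the 2 libraries that stood apart. This ratio rose in 15 of 15 animals to day 3, by 1.66 ± 1.03 on the log2 scale (SD, n = 15), and in 14 of 15 to day 14, by 3.10 ± 1.78. The ratio of EIF2AK3 to EIF2AK4 fell from a median of 7.74 on day 0 to 4.98 on day 3 (lower in 14 of 15 animals) and 5.55 on day 14 (lower in 13 of 15). As a share of the summed FPKM of all 4 eIF2 kinases, EIF2AK1 made up 50.6% ± 22.1 on day 0 (SD, n = 15), which became 73.4% ± 12.9 by day 3 and 87.9% ± 7.79 by day 14. EIF2AK3 made up 35.8% ± 17.2, 17.8% ± 8.27 and 8.59% ± 5.98. EIF2AK3 was the most abundant of the 4 kinase transcripts in 5 of 15 day 0 libraries, and EIF2AK1 was in the other 10 and in all 30 later ones.

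**Figure D4:**
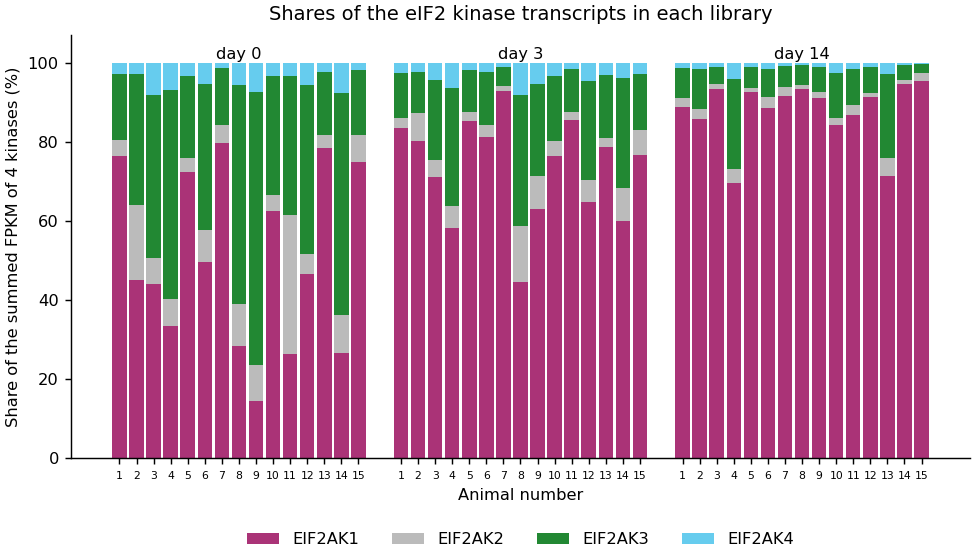
Share of each of the 4 eIF2 kinase transcripts in their summed FPKM (vertical axis, percent), with 1 bar per library in the order of the animal numbers. Shares describe the mixture of cells in each library. The EIF2AK1 share ranges from 14.4% to 79.8% on day 0, from 44.6% to 92.8% on day 3 and from 69.6% to 95.4% on day 14. The lowest shares on day 0 and day 14 are those of animals 9 and 4, the 2 libraries that stood apart.

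EIF2AK2, the kinase PKR that senses double-stranded RNA and is induced by interferon, was at 17.6 ± 15 scaled FPKM on day 0 (SD, n = 15). It was at 12.7 ± 4.82 on day 3 and 12.2 ± 6.44 on day 14. Its log2 changes from day 0 of −0.23 (standard error 0.24, adjusted p = 0.602) and −0.33 (0.24, adjusted p = 0.296) did not pass the threshold. Its share of the kinase transcripts had a median of 6.83% on day 0 (3.26% to 35.1%), 4.35% on day 3 (1.25% to 14.3%) and 1.83% on day 14 (1.02% to 4.69%), and on day 0 animal 11 was the highest, with the next library at 19.1%.

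EIF2S1, the subunit that these kinases phosphorylate, differed little. The lowest, median and highest samples were at 14.1, 21.8 and 27.1 scaled FPKM on day 0, 12.8, 21.5 and 24.3 on day 3, and 18.9, 23.5 and 32.8 on day 14. The log2 fold change was −0.01 on day 3 (adjusted p = 0.972). On day 14 it was 0.23 with TMM (standard error 0.09, adjusted p = 0.0426, higher in 12 of 15 animals) and −0.19 in FPKM as deposited (adjusted p = 0.310, higher in 5 of 15). Single animals decided the call, since 11 of the 15 omissions of an animal ended the call (all but those of animals 3, 5, 6 and 8, up to 0.168). It was also lost without the 2 libraries that stood apart (0.22, adjusted p = 0.0722) and with no filter (0.20, adjusted p = 0.157). The RNA integrity covariate (0.10, adjusted p = 0.560) and the 2 marker covariates (0.0256, adjusted p = 0.9685) ended the call as well. From day 3 to day 14 the change of EIF2S1 was 0.24 (adjusted p = 0.0679, higher in 14 of 15 animals), and −0.14 without TMM. It was called with the animal as a block (adjusted p = 0.0312) but not with the block and the RNA integrity covariate (0.16, adjusted p = 0.193). The most similar genes were CLNS1A, of the complex that assembles splicing proteins, and MDH1, cytosolic malate dehydrogenase (r = 0.907 and 0.896).

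PPP1R15B, the constitutive phosphatase subunit CReP that counters the kinases, fell on both later days. Its lowest, median and highest levels were 40.0, 49.0 and 70.6 scaled FPKM on day 0, 26.2, 38.8 and 42.4 on day 3, and 32.3, 38.0 and 44.6 on day 14. It was lower on day 3 in 15 of 15 animals and on day 14 in 14 of 15, and 10 of 15 samples of each later day were below the lowest day 0 sample. The log2 fold change was −0.43 (standard error 0.08, adjusted p = 7.61e-04) on day 3 and −0.36 (0.08, adjusted p = 2.85e-04) on day 14. From day 3 to day 14 it was 0.07 (adjusted p = 0.603), or −0.32 without TMM (adjusted p = 0.0470). Both falls from day 0 kept their call under every omission of an animal, and with the 2 marker covariates they were −0.32 (standard error 0.10, adjusted p = 0.0546) and −0.21 (0.13, adjusted p = 0.516). Across the 45 libraries PPP1R15B correlated with EIF2AK3 at r = 0.737 and, after removal of the time point means, at 0.469. With the neutrophil markers r was 0.818 within day 0 and −0.151 and 0.051 within day 3 and day 14. Most like it were PTPRC, the pan-leukocyte surface phosphatase CD45, and AFTPH, a vesicle trafficking protein (r = 0.927 and 0.921). Within libraries the ratio of PPP1R15B to EIF2S1 fell from a median of 2.35 on day 0 to 1.89 and 1.71, and was lower in 14 of 15 animals on each later day. The ratio of PPP1R15B to EIF2AK3 had medians of 0.782, 0.798 and 0.902.

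ATF4, the central transcription factor of the response, was abundant and changed little. Samples had their lowest, median and highest level at 64.3, 91.8 and 126 scaled FPKM on day 0, 60.8, 108 and 119 on day 3, and 86.0, 116 and 149 on day 14. On day 3 the log2 fold change was 0.05 (standard error 0.09, adjusted p = 0.809), with 8 animals higher and 7 lower. On day 14 it was 0.25 with TMM (0.09, adjusted p = 0.0339, higher in 12 of 15 animals) and −0.18 in FPKM as deposited (adjusted p = 0.183, higher in 6 of 15). The call was also lost with no filter (0.21, adjusted p = 0.1145), with the RNA integrity covariate (0.11, adjusted p = 0.508), with the 2 marker covariates (−0.17, adjusted p = 0.6575) and without animal 1, 3, 6, 7, 9, 12 or 14 (down to 0.15, adjusted p up to 0.206). ATF4 correlated with the erythroid markers at r = 0.649 over all libraries and at 0.577, 0.562 and 0.693 within the time points. The 2 genes most like it were LOC103222015 and LOC103222011, which are the histone genes H2BC4 and H2BC5 in RefSeq's gene table (r = 0.845 and 0.844).

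DDIT3, which encodes the transcription factor CHOP, fell on day 3 and was the most variable of the ATF4 group in the field. Its lowest, median and highest levels were 8.55, 13.9 and 37.2 scaled FPKM on day 0, 6.38, 10.01 and 15.5 on day 3, and 6.47, 12.8 and 15.4 on day 14. The coefficient of variation between animals went from 48.6% on day 0 to 24.2% and 22.9%. The groups overlapped in their lower parts, and the highest day 0 samples had no counterpart later. The log2 fold change was −0.63 on day 3 (standard error 0.17, adjusted p = 0.0106, lower in 11 of 15 animals), and this call held under every omission of an animal (up to 0.0318). On day 14 it was −0.37 (0.17, adjusted p = 0.0741, lower in 11 of 15), which was called without animal 1, 9, 12 or 14 (down to −0.47, adjusted p = 0.0277) and without TMM (−0.79, adjusted p = 6.19e-05). The ratio of DDIT3 to ATF4 fell in 12 of 15 animals on each later day, by 0.68 ± 0.70 and 0.62 ± 0.56 on the log2 scale (SD, n = 15), a comparison free of the scaling. DDIT3 correlated with the neutrophil markers at r = 0.676 over all libraries and at 0.771, 0.497 and 0.402 within day 0, 3 and 14. With the 2 marker covariates its change on day 3 was −0.37 (standard error 0.18, adjusted p = 0.205). Among the genes most like DDIT3 was NFU1, which encodes an iron-sulfur cluster protein (r = 0.840).

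TRIB3, a pseudokinase induced by ATF4 and CHOP, rose on day 3, and its day 14 level did not pass the test against either earlier time point. By lowest, median and highest sample it was at 3.16, 4.4 and 8.44 scaled FPKM on day 0, 4.45, 6.40 and 10.6 on day 3, and 3.29, 5.30 and 9.72 on day 14. It was higher on day 3 in 14 of 15 animals, with a log2 fold change of 0.43 (standard error 0.13, adjusted p = 0.0261). The call was lost without animal 3, 9, 11, 12 or 15 (up to 0.0634), without TMM (0.39, adjusted p = 0.215) and with the RNA integrity covariate (0.38, adjusted p = 0.0762). It was called with the animal as a block (adjusted p = 0.0200) and with the block and this covariate together (0.41, adjusted p = 0.0463). TRIB3 was the only member called in the fit with the 2 marker covariates, at 0.60 on day 3 (standard error 0.17, adjusted p = 0.0481), and with the animal as a block added it was not called (0.59, adjusted p = 0.101). On day 14 the change from day 0 was 0.15 (adjusted p = 0.406), or −0.27 without TMM. From day 3 to day 14 it was −0.28 (adjusted p = 0.135, lower in 11 of 15 animals), called without TMM (−0.66, adjusted p = 0.00594) and without animal 6 or 7 (down to −0.38, adjusted p = 0.0372). TRIB3 correlated with the platelet markers at r = 0.633 over all libraries and at 0.590, 0.515 and 0.434 within the time points, and on day 14 ASNS (0.616) and EIF2AK1 (0.573) were higher. Platelet markers were not a covariate in any fit, so their part in this rise was not tested. Most like TRIB3 were GAS2L1, a cytoskeletal linker, and LOC103245839, named INAFM2 by RefSeq (r = 0.799 and 0.794).

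ASNS, asparagine synthetase and a classical ATF4 target, rose most after EIF2AK1. Its lowest, median and highest levels were 2.15, 4.26 and 6.64 scaled FPKM on day 0, 2.87, 6.04 and 14.1 on day 3, and 4.73, 9.86 and 17.3 on day 14. On day 14, 13 of 15 samples were above the highest day 0 sample, and 15 of 15 animals were higher than on day 0. The log2 fold change was 0.56 on day 3 (standard error 0.21, adjusted p = 0.0736, higher in 12 of 15 animals) and 1.23 on day 14 (0.21, adjusted p = 1.84e-05), with 0.67 between them (0.21, adjusted p = 0.0304). The rise to day 3 was called with the animal as a block (adjusted p = 0.0275) and without TMM (0.52, adjusted p = 0.0259), but not with the RNA integrity covariate added to the block (0.55, adjusted p = 0.0565). The rise to day 14 was called under every omission of an animal (up to 1.33e-04), while that from day 3 to day 14 was lost without animal 2, 3, 8, 9, 12, 14 or 15 (up to 0.102), without TMM (0.29, adjusted p = 0.122) and with no filter (0.64, adjusted p = 0.0591).

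ASNS kept its rise against ATF4 within libraries, where scaling plays no part. The ratio of ASNS to ATF4 had medians of 0.0434, 0.0659 and 0.0801 at the 3 time points, and was higher in 12 and 14 of 15 animals on the later days. The ratio of ASNS to DDIT3 rose in 15 of 15 animals on day 3 and in 14 of 15 on day 14, by 1.2 ± 1.0 and 1.62 ± 0.73 on the log2 scale (SD, n = 15). ASNS correlated with EIF2AK1 at r = 0.848, the highest of the 36 pairs of members, and at 0.722 after removal of the time point means. With the erythroid markers r was 0.849 over all libraries and 0.531, 0.837 and 0.895 within day 0, 3 and 14. With the 2 marker covariates the change of ASNS was −0.01 on day 3 and 0.26 on day 14 (standard error 0.26, adjusted p = 0.739). The genes most like it were DCAF8, a ubiquitin ligase adaptor, and PHLPP2, a phosphatase (r = 0.890 and 0.886).

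Among themselves the 9 members showed little common movement. The median correlation over their 36 pairs was −0.03 across the 45 libraries, 5 pairs were above 0.5 and 2 below −0.5. Libraries share their depth and cell makeup, so these values describe the mixture. The pairs above 0.5 were EIF2AK1 with ASNS (0.848) and ATF4 (0.694), ATF4 with ASNS (0.60), EIF2AK3 with PPP1R15B (0.737) and PPP1R15B with DDIT3 (0.519). The pairs below −0.5 were EIF2AK4 with DDIT3 (−0.541) and EIF2AK1 with EIF2AK3 (−0.504). After removal of the time point means EIF2AK4 and DDIT3 were still at −0.510, while EIF2AK1 and EIF2AK3 were at −0.041.

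FPKM are per gene length, so levels can also be ranked between genes. By mean deposited FPKM the order on day 0 was EIF2AK1 (133), ATF4 (108), EIF2AK3 (70.9), PPP1R15B (55.8), EIF2S1 (24), DDIT3 (18.0), EIF2AK4 (9.21), TRIB3 (5.65) and ASNS (4.71). Within libraries EIF2AK1 was above ATF4 in 7 of 15 animals on day 0, a log2 ratio of −0.10 ± 1.29 (SD, n = 15), so the first 2 were not separated beyond their spread. TRIB3 and ASNS (0.27 ± 0.66) and EIF2S1 and DDIT3 (0.43 ± 0.67) were not either, with the first of each pair higher in 11 of 15 animals. Spread here is the SD between animals and not the error of the mean. On day 3 the order was the same, with EIF2AK1 at 250 above ATF4 at 109 in 12 of 15 animals. DDIT3 and EIF2AK4 were then not separated beyond the spread (0.15 ± 0.41), nor were TRIB3 and ASNS (0.13 ± 0.84). The first of each of these pairs was higher in 10 of 15 animals. On day 14 EIF2AK1 stood at 471 and was above ATF4 (95.4) in 15 of 15 animals, by 2.21 ± 0.81. EIF2AK3 and PPP1R15B were not separated beyond the spread (0.15 ± 0.18), although EIF2AK3 was higher in 12 of 15 animals. By mean, ASNS was then seventh at 8.07, between DDIT3 (10.1) and EIF2AK4 (6.58), and TRIB3 was last (4.73). ASNS was separated from neither neighbour beyond the spread. The log2 ratios were 0.31 ± 0.52 for DDIT3 to ASNS (DDIT3 higher in 11 of 15) and 0.32 ± 0.60 for ASNS to EIF2AK4 (ASNS higher in 12).

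The wider machinery around eIF2 was covered by 19 further genes: EIF2AK2, the other eIF2 subunits, the exchange factor eIF2B, the initiation factors EIF2A and EIF2D, activators and inhibitors of the kinases and the catalytic subunits of the phosphatase. On day 3 vs. day 0, 2 rose and 0 fell, a share of 10.5% beside 12.2% of all genes, and 0 were called without TMM. On day 14 vs. day 0, 6 rose and 1 fell with TMM and 1 rose and 4 fell without it. With TMM this was a share of 36.8%, near the 36.0% of all genes, with a median log2 fold change of 0.13. The rises on day 3 were EIF2B1, a subunit of eIF2B (0.27, adjusted p = 0.00849, higher in 15 of 15 animals), and GCN1L1, the activator of GCN2 (0.37, adjusted p = 0.0390, higher in 11). PPP1CB, a catalytic subunit of protein phosphatase 1, rose from 335 ± 250 to 1194 ± 664 scaled FPKM on day 14 (SD, n = 15), a log2 fold change of 1.95 with adjusted p = 2.38e-05 that was seen in 15 of 15 animals. OMA1, the mitochondrial protease upstream of HRI, rose by 0.54 (adjusted p = 6.83e-04, higher in 13) and EIF2S2, the beta subunit of eIF2, by 0.47 (adjusted p = 0.00335, higher in 12). DNAJC3, an inhibitor of these kinases, fell by 0.55 (adjusted p = 0.00386, lower in 14). Without TMM the median of the list on day 14 was −0.29, and OMA1 and EIF2S2 were no longer called (0.12 and 0.05). On day 14, 3 genes of this list rose and 0 fell with the RNA integrity covariate, and 0 were called with the 2 marker covariates. On day 3 the 2 marker covariates gave 0 rises and 2 falls, the RNA integrity covariate 1 rise and 0 falls, and the block 4 rises and 1 fall.

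Of 35 tested partners and targets of ATF4 and CHOP, 8 rose and 2 fell on day 3, a share of 28.6% beside 12.2% of all genes. On day 14, 12 rose and 3 fell, a share of 42.9% beside 36.0% of all genes, against 8 rises and 9 falls without TMM. SLC6A9, which carries glycine, went from 1.33 ± 1.22 to 4.65 ± 3.77 on day 3 and 10.4 ± 11.4 scaled FPKM on day 14 (SD, n = 15, log2 fold change 1.85 and 2.75, adjusted p = 0.00374 and 4.98e-06). SLC1A5, a glutamine transporter, rose by 1.54 on day 14 (adjusted p = 4.23e-06, higher in 14 of 15 animals). SLC38A2, another neutral amino acid transporter, fell by 0.53 on day 3 and by 0.47 on day 14 (adjusted p = 0.00218 and 9.97e-04), in 13 of 15 animals each time. GADD45A, a growth arrest gene, rose by 2.63 on day 14 (adjusted p = 1.17e-06, higher in 15 of 15), and GDF15, a secreted stress cytokine at a low level, went from 0.264 ± 0.243 to 0.675 ± 0.444 scaled FPKM on day 3 (log2 fold change 1.14, adjusted p = 0.00616). Falls were seen for PMAIP1, the proapoptotic NOXA, on day 3 (−0.55, adjusted p = 0.00966), and for CEBPB, a dimer partner of these factors (−1.01, adjusted p = 0.00774), and the sestrin SESN2 (−0.57, adjusted p = 0.00293) on day 14. With the 2 marker covariates 2 rises and 2 falls were called on day 3, and 0 on day 14. The animal as a block gave 10 rises and 3 falls on day 3, and 13 and 3 on day 14. CHAC1, STC2 and FGF21 did not pass the filter on low values.

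Of the 21 genes tested for cytosolic aminoacyl-tRNA synthetases and the tRNA exporter, many of which ATF4 can induce, 5 rose and 0 fell on day 3, a share of 23.8% beside 12.2% of all genes, or 1 and 0 without TMM. On day 14, 12 rose and 1 fell, a share of 61.9% beside 36.0% of all genes, but 0 rose and 3 fell without TMM. The median log2 fold changes were 0.14 and 0.26, and −0.16 on day 14 without TMM. WARS, which is also induced by interferon, rose from 34.7 ± 5.87 to 61.1 ± 17.0 scaled FPKM on day 3 (SD, n = 15, log2 fold change 0.78, adjusted p = 2.14e-04, higher in 14 of 15). AARS rose by 0.55 on day 3 (adjusted p = 0.00143, higher in 15 of 15) and by 0.48 on day 14 (adjusted p = 6.43e-04). IARS (0.77, adjusted p = 5.37e-04) and NARS (0.48, adjusted p = 2.25e-04) rose on day 14, and CARS fell (−0.43, adjusted p = 0.0367, lower in 10 of 15). On day 14, 4 rose and 0 fell with the RNA integrity covariate, and 0 were called with the 2 marker covariates. The animal as a block gave 7 rises and 0 falls on day 3, and 13 and 1 on day 14. On day 14 without TMM, AARS was at 0.06, IARS at 0.35 and NARS at 0.05.

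The other arms of the unfolded protein response, run by IRE1 and ATF6 rather than PERK, were covered by 27 genes. On day 3, 3 rose and 1 fell, a share of 14.8% beside 12.2% of all genes, or 0 and 1 without TMM. On day 14, 12 rose and 2 fell, a share of 51.9% beside 36.0% of all genes, but 1 rose and 9 fell without TMM. HSPA5, the main chaperone of the endoplasmic reticulum (BiP), rose from 39.1 ± 9.85 to 78.5 ± 58.5 scaled FPKM on day 14 (SD, n = 15, log2 fold change 0.81, adjusted p = 6.96e-04, higher in 15 of 15), and was called without TMM too (0.38, adjusted p = 0.0380). The co-chaperone DNAJB9 (0.64, adjusted p = 6.21e-05, higher in 14) and the degradation factor DERL3 (0.56, adjusted p = 0.00755, higher in 12) rose on day 14, and the chaperone HYOU1 (0.48, adjusted p = 0.0107) and ATF6B (0.38, adjusted p = 0.0327) on day 3. ATF6, a stress sensor of the membrane as PERK is, fell by 0.29 on day 3 and by 0.25 on day 14 (adjusted p = 0.0178 and 0.0163), in 11 and 12 of 15 animals. WFS1, a membrane protein of the reticulum, fell by 1.08 on day 14 (adjusted p = 0.00428, lower in 12 of 15). With the RNA integrity covariate 3 rose and 0 fell on day 14, and with the 2 marker covariates this list had 0 calls in the 3 comparisons. The animal as a block gave 6 rises and 2 falls on day 3, and 13 and 4 on day 14.

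From day 3 to day 14, with 13.4% of all genes called, 5 of the 19 genes around eIF2 rose and 1 fell, a share of 31.6%. Of the partners and targets of ATF4 and CHOP 3 rose and 0 fell (8.57%), of the synthetase genes 2 rose and 2 fell (19.05%), and of the other unfolded protein response genes 2 rose and 1 fell (11.1%). Without TMM these counts were 1 rise and 5 falls around eIF2, 2 and 9 among the ATF4 and CHOP genes, 0 and 7 among the synthetases, and 0 and 13 in the unfolded protein response, so more genes of each list fell than rose in that fit. With the RNA integrity covariate the rises and falls were 2 and 0, 2 and 0, 1 and 1, and 1 and 0 in the same order of lists, and with the 2 marker covariates there was 1 call in all, a rise among the ATF4 and CHOP genes. With the animal as a block the rises and falls were 5 and 1, 4 and 2, 4 and 3, and 3 and 1.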

How the data were processed

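The authors removed ribosomal and globin RNA from PAXgene blood RNA, sequenced stranded paired-end libraries, aligned them with STAR and counted fragments with HTSeq (bcl2fastq 2.17 per the labels). The deposited values are FPKM per gene symbol, with no scaling between libraries. Of the values above 0, 99.9925% were whole multiples (within 0.05) of 1 fragment's worth, which gave fragment counts and CPM. Genes with more than 0.5 CPM in at least 3 samples were kept. FPKM were divided by TMM factors (trims 30% and 5%), 0.1 was added, and log2 values were fitted in limma 3.58.1 (R 4.3.3) with 1 mean per time point and no animal term, p-values adjusted by Benjamini-Hochberg. The study's count model was not used: the test was made on the deposited FPKM scale, and the recovered counts entered only the filter, TMM and voom. The script was tested on simulated data with independent samples and no shift in cell makeup, so that test does not cover these features. Samples of the same animal are paired by the labels: after removal of time point means they correlated at r = 0.328 (−0.0433 to 0.582 over 45 pairs), those of different animals at −0.0231. The RNA integrity number, from the study's supplement, served only as a covariate. Alternatives were 2 other pseudocounts, no TMM, 2 other filters, an animal block, covariates, a trend, voom weights and omission of each animal. Named genes outside the members were, in each list, the largest called rises and falls (up to 3 each on day 14, 2 on day 3) and the 2 genes most correlated with each member, 1 of which is not reported here. The members, gene lists and ratios were chosen with earlier results of these data known. Sequences were not analysed here.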

Additional observations from a re-analysis of the deposited data

How the results depend on the processing

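Of the 27 log2 fold changes of the members, 0 changed direction or call with a pseudocount of 1 or 0.01, a stricter filter, a trend or voom weights. Without a filter 4 did, with the animal as a replicate block 3 and with the RNA integrity number 7. It was 15 without TMM, 14 with the erythroid and neutrophil marker covariates, and 18 with the animal as a block added to these covariates. Those covariates differ strongly between time points, so a call lost under them does not show that a level was unchanged. The RNA integrity number was also higher on average on the later days, so the same limit holds for calls lost with it. The least covered value of a member rested on 85 fragments. The cause of the differences between alternatives was not tested.

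With the replicate block, 4 members were called on day 14 vs. day 3, and 4445 genes there and 3593 on day 3 vs. day 0. Block and RNA integrity number together gave 4070 genes on day 14 vs. day 0. With the RNA integrity number alone, 3 members were called in the first comparison (day 3 vs. day 0) and 1 in the last (day 14 vs. day 3), and 1436, 3730 and 1135 genes in the 3 comparisons. With the marker covariates it was 1, 0 and 0 members and 517, 11 and 102 genes, and with the block added (chosen after seeing the data) 0, 0 and 1 members and 319, 8 and 910 genes. The 1 member called in this last fit was not called in that comparison in the main fit. On day 14 vs. day 3, no TMM gave 5 members and 7206 genes, and no filter 1 member. With single animals left out, 3 to 5, 4 to 6 and 0 to 4 members were called, and 1365 to 2360, 5916 to 6993 and 794 to 3315 genes. Without the 2 libraries that stood apart (chosen after seeing the data), 3396 genes were called on day 14 vs. day 3. The lowest counts of genes came without animal 2 (day 3 vs. day 0) and animal 8 (day 14 vs. day 3).

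Without TMM, day 14 vs. day 0 was −0.18 for ATF4, −0.19 for EIF2S1 and −0.27 for TRIB3, and day 14 vs. day 3 was −0.18 for ATF4, −0.12 for DDIT3, −0.14 for EIF2S1 and −0.32 for PPP1R15B. With the marker covariates EIF2AK1 was −0.32 on day 3 and −0.0349 on day 14 vs. day 0, ASNS −0.0075 on day 3, and ATF4 −0.20 and −0.17. With the block added, EIF2AK1 was −0.26 on day 3, ASNS −0.26 and −0.11, ATF4 −0.15 and −0.0916, DDIT3 0.11 on day 14 vs. day 0 and EIF2AK3 0.0276 on day 14 vs. day 3. With the RNA integrity number ATF4 was −0.0194 on day 3 (−0.0373 with the block) and EIF2AK4 0.0172 on day 14 (0.0107 with the block). On day 3, omissions of an animal moved ATF4 between −0.0182 and 0.088 and EIF2S1 between −0.0571 and 0.0379, neither of which was called.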
